A study of Mus musculus with 2 samples.

Results

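The genes described here are 42 mouse genes of tRNA charging and of the amino acid stress response that the transcription factor ATF4 drives. They were chosen by symbol and matched by Entrez Gene number, and 42 of the 18090 genes with reads in either library carried these numbers. They are 20 cytosolic aminoacyl-tRNA synthetase genes, 13 mitochondrial ones (suffix 2), 2 scaffold genes of the multisynthetase complex, and Atf4 with 6 of its targets. RNA was sequenced in 1 library of mature and 1 library of immature dendritic cells grown from bone marrow of C57BL/6 mice. The mature cells were cultured for 6 days in GM-CSF (10 ng/ml) plus IL-4 (1 ng/ml), and then received lipopolysaccharide (LPS), a bacterial cell wall component, at 100 ng/ml for 24 h in the same factors. The immature cells had the same culture, and the labels name no LPS for them; the protocol ties LPS to a sample number only, read here as the mature library. They do not say whether those cells were kept for the extra day. Both were sorted on surface CD86 and I-Ab, with gates that the labels do not give, and neither state has a replicate.

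Aminoacyl-tRNA synthetases join each amino acid to its tRNA. Most cytosolic enzymes and most mitochondrial enzymes are products of separate nuclear genes, while Gars and Kars supply both compartments. Uncharged tRNA activates the kinase Gcn2, which phosphorylates the initiation factor eIF2. General translation then falls, while that of Atf4 mRNA rises. ATF4 protein pairs with C/EBP factors on composite promoter elements and activates genes of amino acid synthesis, amino acid transport and tRNA charging. Because ATF4 is controlled at translation, its mRNA level is not a measure of its activity.

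The composite element was searched in promoters because it is the sequence link between the synthetases and ATF4. The letters TGATGNAA, or TTNCATCA when read on the other strand, were looked for on both strands of promoter windows. The span set for a window was 250 bases before to 50 bases after a start. Of all 32851 windows, 19827 began 250 bases before the RefSeq gene start, and the rest lay at other distances from it. Starts and windows are those of the assembly GRCm38.p6. This is not the build of the deposited files. Promoters were found for 34 of the 42 genes. The letters stood in 5 of 13 cytosolic synthetase genes with a promoter, 0 of 12 mitochondrial ones, 0 of 2 scaffold genes and 3 of 7 in the Atf4 group. Of all 27025 genes with a promoter 4.51% held them, and of the 8865 genes compared here that have one 2.80% did. A match is a description of letters and not a bound site. Windows of these genes are given 5′ to 3′ on the strand of the gene, with the matching letters in capitals.
Chac1, chr2:119351038-119351067, + strand: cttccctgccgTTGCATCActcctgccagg
Trib3, chr2:152344028-152344057, - strand: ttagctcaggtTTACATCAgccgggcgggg
Asns, chr6:7693214-7693243, - strand: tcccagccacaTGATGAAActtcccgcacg
Aars, chr8:111033840-111033869, + strand: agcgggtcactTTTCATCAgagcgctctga
Gars, chr6:55037960-55037989, + strand: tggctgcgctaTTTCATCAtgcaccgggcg
Iars, chr13:49682126-49682155, + strand: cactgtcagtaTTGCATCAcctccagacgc
Tars, chr15:11399655-11399684, - strand: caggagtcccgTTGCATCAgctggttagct
Yars, chr4:129189895-129189924, + strand: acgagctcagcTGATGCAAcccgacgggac

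Reads counted to genes came to 8.07 M in the mature and 7.56 M in the immature library. Levels are in RPKM, the reads of a gene per kilobase of its length and per M reads counted, so 3 reads on 1 kilobase stood at 0.372 RPKM in the mature and 0.397 RPKM in the immature library. Dendritic cell markers were present in both: all 10 listed markers had reads. In the mature library 6 were higher by 2-fold or more, against 9.05% of all genes compared, 1 was lower, against 11.3%, and 3 lay within 2-fold. Counts of markers use the scale and filter given in the next paragraph. Ccr7, the homing receptor of mature dendritic cells, stood at 578 RPKM in the mature and 31.5 RPKM in the immature library. Cd86, on which the cells were sorted, stood at 152 RPKM in the mature and 26.1 RPKM in the immature library. The lower one was Itgax, the gene of CD11c, at 148 RPKM in the mature and 407 RPKM in the immature library. RNA of marker genes of other marrow cells differed between the libraries too. Of 14 neutrophil and granulocyte precursor markers 12 were at least 2-fold lower in the mature library, against 11.3% of all genes compared. Their summed levels were 2044 RPKM in the mature and 8468 RPKM in the immature library, with none at 0. Of 12 macrophage and monocyte markers 7 were lower, against 11.3%. Their sums were 692 RPKM in the mature and 1336 RPKM in the immature library, with none at 0. Of 10 proliferation genes 10 were lower, against 11.3%, with sums of 59.3 RPKM in the mature and 556 RPKM in the immature library. T, B and NK cell markers summed to 5.10 RPKM in the mature and 3.99 RPKM in the immature library. Erythroid and megakaryocyte markers summed to 118 RPKM in the mature and 75.8 RPKM in the immature library, nearly all of it Pf4. Mast cell and basophil markers summed to 0.463 RPKM in the mature and 6.17 RPKM in the immature library. Klrb1c was at 0 in the mature library, Cd4 and Ncr1 at 0 in the immature one, and Hba-a1, Mcpt4, Tpsb2, Fcer1a and Ms4a2 at 0 in both. The part of these cells, and of the difference in proliferation, in the results below was not tested. In bulk RNA, fewer cells of a type and less RNA per cell cannot be told apart.

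With 1 library per state there is no replicate error and no test was made. Each ratio below, also where it is given as a fold of a single gene, is mature over immature RPKM, and the range in parentheses is its exact 95% counting interval, which covers counting error only. In counts, genes are taken as higher or lower from a 2-fold difference onwards on the scale log2(RPKM + 1), among the 11547 genes that reached 1 RPKM in a library. On this scale 9.05% of those genes were higher in the mature library and 11.3% lower (20.4% either way), with a median of 0.026. Of the 42 genes, 41 reached 1 RPKM, and Chac1 did not. Of these 41, 1 was higher, 5 were lower and 35 lay within 2-fold, with a median of -0.28. The ratio lay above 1 for 14 of the 41, against 51.6% of all genes compared, and below 1 for 27, against 48.4%. The whole counting interval lay beyond 2-fold for 3 genes on the lower side (Phgdh, Psat1 and Vars), against 8.43% of all genes, and for 0 on the higher side, against 6.88%.

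Levels spanned more than the differences between states. In the mature library the highest level was that of Atf4, at 480.0 RPKM, followed by the cytosolic enzyme genes Sars at 102 RPKM, Gars at 77.4 RPKM and Nars at 54.0 RPKM. In the immature library Atf4 was also highest, at 281 RPKM, followed by Sars at 97.4 RPKM, Gars at 93.7 RPKM and Rars at 80.3 RPKM. Cytosolic enzymes had a median of 21.3 RPKM in the mature and 32.5 RPKM in the immature library, and mitochondrial enzymes one of 4.88 RPKM in the mature and 3.89 RPKM in the immature library. The lowest levels were those of Chac1, at 0.235 RPKM in the mature and 0.668 RPKM in the immature library, and of Phgdh in the mature library, at 0.265 RPKM.

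**Figure D1:**
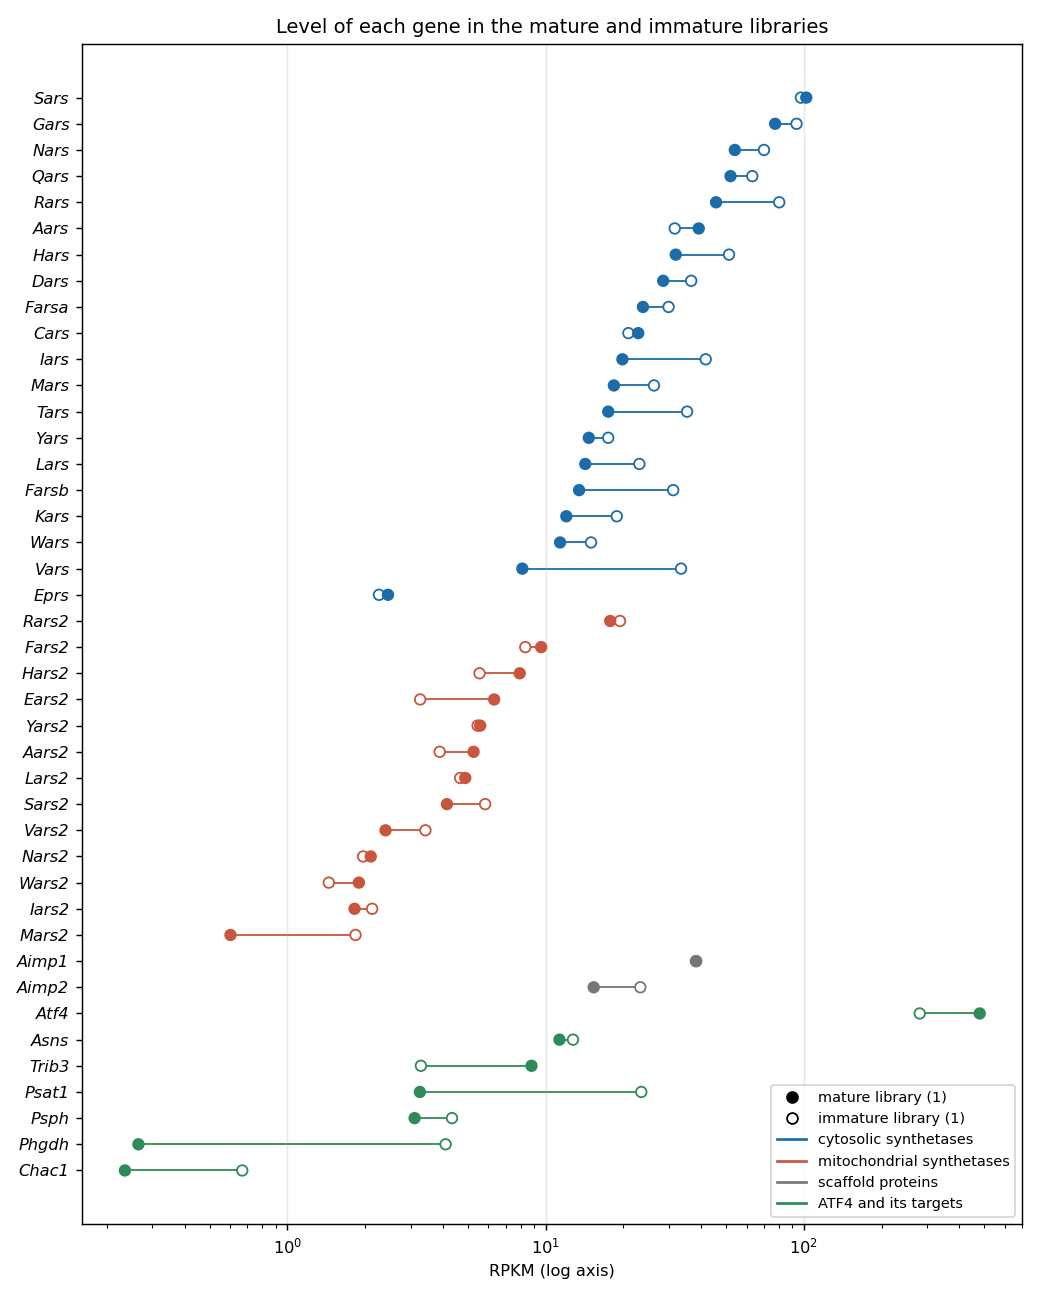
RPKM of each of the 42 genes on a log axis, by group, with filled points for the mature and open points for the immature library (1 library each). Most blue cytosolic enzymes have the filled point to the left of the open one, whereas the red mitochondrial enzymes lie lower and point both ways.

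The cytosolic synthetases were lower in the mature library in most cases, by modest amounts. Of 20 compared, 3 were at least 2-fold lower, 0 higher and 17 within 2-fold, near the 11.3% of all genes that were lower. The ratio was below 1 for 16 of 20, against 48.4% of all genes compared. For these 16 the counting interval lay wholly below 1, against 33.8%. It lay wholly above 1 for 1, against 36.1%. Intervals narrow as reads increase, and these genes had from 83 to 1694 reads in a library. The median of genes with reads was 82 in either library, so the shares by interval do not compare genes of like depth. The median log2 fold was -0.37. Together the 20 genes had 12854 reads in the mature and 16416 in the immature library, which per M counted reads is a ratio of 0.734 (0.717 to 0.751).

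Vars, the enzyme for valine, differed most. It stood at 8.12 RPKM (277 reads) in the mature and 33.5 RPKM (1069 reads) in the immature library, 4.12-fold lower (3.61 to 4.72). Its whole interval lay beyond 2-fold, which held for no other cytosolic enzyme. Farsb, the beta subunit of the phenylalanine enzyme, stood at 13.5 RPKM in the mature and 31.2 RPKM in the immature library, 2.31-fold lower (1.98 to 2.72). Farsa, the alpha subunit of that same enzyme, stood at 23.8 RPKM in the mature and 29.9 RPKM in the immature library, 1.26-fold lower (1.09 to 1.45). The subunit genes thus stood at nearly equal levels in the immature library and apart in the mature one, with intervals of their ratios that did not overlap. Iars, for isoleucine, stood at 19.8 RPKM in the mature and 41.7 RPKM in the immature library, 2.10-fold lower (1.92 to 2.30). Tars, for threonine, stood at 17.5 RPKM in the mature and 35.3 RPKM in the immature library, 2.02-fold lower (1.78 to 2.30), and missed the 2-fold line on the scale with 1 RPKM added. At this line the calls of Iars (log2 fold -1.03) and Tars (-0.97) change with the scaling.

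A middle set was lower by less. Rars, for arginine, stood at 45.7 RPKM in the mature and 80.3 RPKM in the immature library, 1.76-fold lower (1.61 to 1.92). Lars, for leucine, was 1.62-fold lower (1.43 to 1.83), Hars, for histidine, 1.61-fold lower (1.44 to 1.80), Kars, for lysine, 1.57-fold lower (1.31 to 1.88), and Mars, for methionine, 1.43-fold lower (1.26 to 1.62). Wars, Nars, Dars, Qars, Gars and Yars, for tryptophan, asparagine, aspartate, glutamine, glycine and tyrosine, were between 1.32-fold lower (1.12 to 1.56, Wars) and 1.19-fold lower (1.03 to 1.38, Yars). The ratio of the remaining 4 lay above 1. Aars, for alanine, stood at 39.2 RPKM in the mature and 31.6 RPKM in the immature library, 1.24-fold higher (1.15 to 1.34), and was the cytosolic enzyme with an interval wholly above 1. Cars, for cysteine, had a ratio of 1.09 (0.959 to 1.24), Eprs, for glutamate and proline, one of 1.08 (0.799 to 1.47), and Sars, for serine, one of 1.05 (0.975 to 1.13).

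Reads of some genes covered less of the gene model than is typical for their depth, taken as the median coverage of genes with similar reads per base. Eprs was covered over 11.9% of its length in the mature and 11.8% in the immature library, where 47.6% was typical in the mature and 43.4% in the immature library. Wars was covered over 45.9% (typical 83.3%) in the mature and 46.7% (typical 86.3%) in the immature library. Kars was covered over 55.2% (typical 84.4%) in the mature and 55.7% (typical 88.7%) in the immature library. The levels of these genes are therefore uncertain. Aars was covered over 72.5% (typical 93.1%) in the mature and 72.7% (typical 91.9%) in the immature library. It also overlaps the span of Ddx19b by 3974 bases in the RefSeq table, and Farsb overlaps Sgpp2 by 2332 bases. Since the counting is not stated to use strand, reads in such overlaps cannot be assigned.

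Vertebrate cytosolic synthetases can be sorted by complex and by fold of the catalytic domain, and these divisions were added after the values were seen. The 8 enzymes of the multisynthetase complex (Dars, Eprs, Iars, Kars, Lars, Mars, Qars and Rars) had a median log2 fold of -0.55, and the 12 outside it one of -0.34. Class I enzymes, of which there are 10 with the bifunctional Eprs, had a median of -0.43, and the 10 class II enzymes one of -0.36. Both divisions hold genes from close to 0 down to past 2-fold lower. Among the complex's scaffold genes, Aimp1, which also gives rise to a secreted cytokine, stood at 38.2 RPKM in the mature and 38.3 RPKM in the immature library, a ratio of 0.997 (0.855 to 1.16). Aimp2, the core scaffold that holds the complex together, stood at 15.4 RPKM in the mature and 23.3 RPKM in the immature library, 1.52-fold lower (1.22 to 1.88). The third scaffold gene, Eef1e1, from a list of related genes, stood at 9.30 RPKM in the mature and 21.3 RPKM in the immature library, 2.29-fold lower (1.74 to 3.03).

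**Figure D2:**
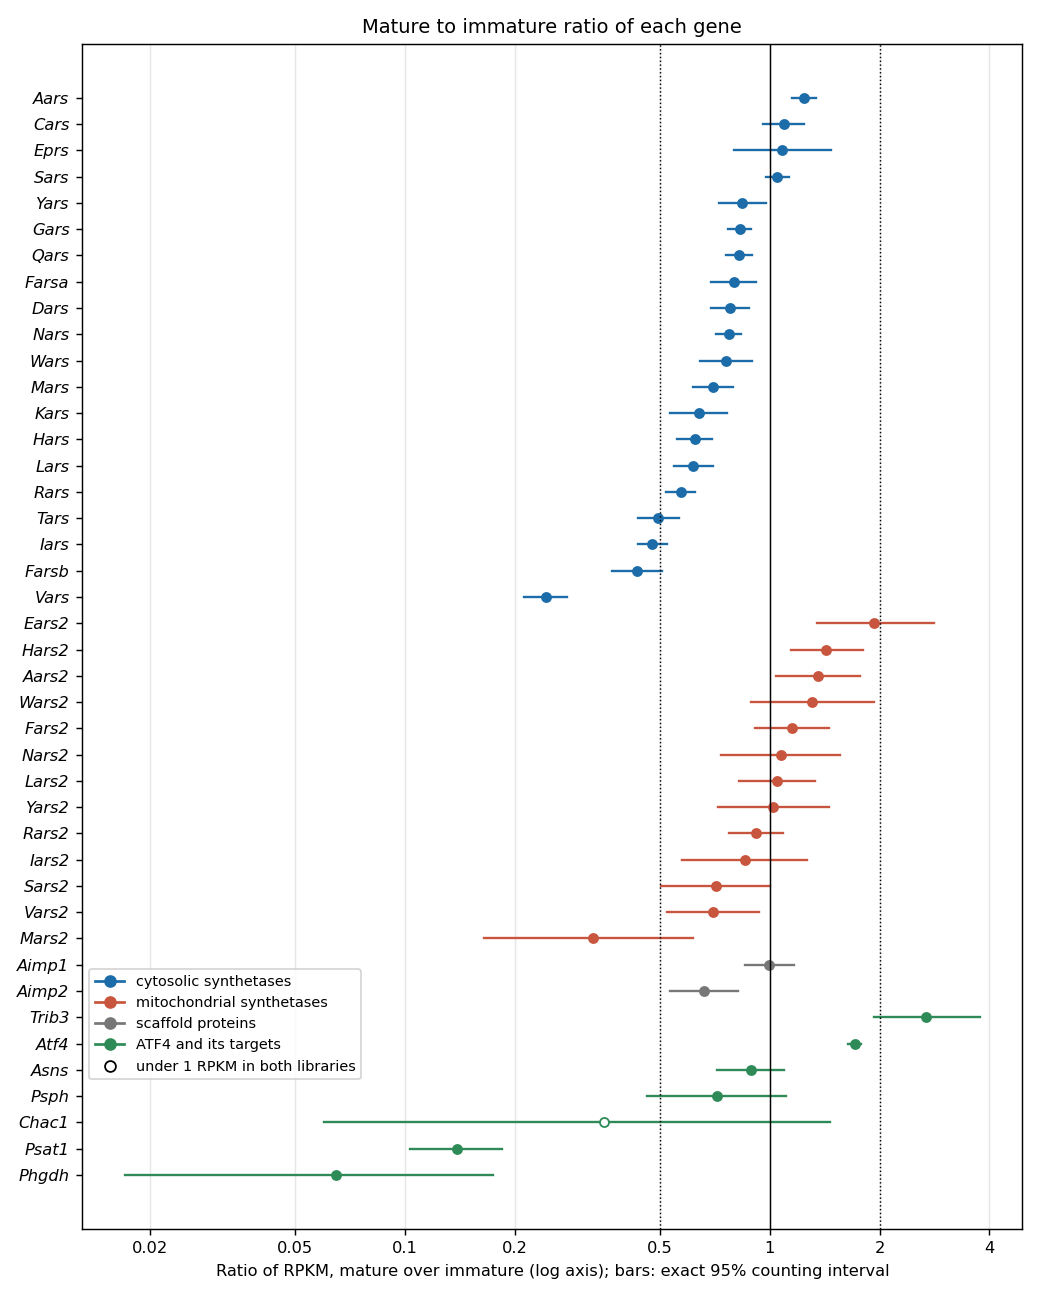
Ratio of RPKM, mature over immature, for each of the 42 genes on a log axis, with exact 95% counting intervals as bars (1 library per state), a solid line at 1 and dotted lines at 2-fold. Of the blue cytosolic enzymes, 16 have bars wholly below 1 and Aars has one wholly above it, while 7 of the 13 red mitochondrial enzymes have bars that cross 1. Phgdh and Psat1 lie farthest left.

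The mitochondrial synthetases were split between directions. Of 13 compared, 0 were at least 2-fold higher or lower, against 20.4% of all genes. The ratio lay above 1 for 8, against 51.6%, and below 1 for 5, against 48.4%, and the median log2 fold was 0.054. The interval lay wholly above 1 for 3, against 36.1%, wholly below 1 for 3, against 33.8%, and held 1 for 7. Together they had 1441 reads in the mature and 1286 in the immature library, a ratio per M counted reads of 1.05 (0.973 to 1.13). Their counts are low, between 14 and 276 reads a gene, and their intervals are accordingly wide.

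Ears2, the mitochondrial enzyme for glutamate, stood at 6.32 RPKM (95 reads) in the mature and 3.27 RPKM (46 reads) in the immature library, 1.93-fold higher (1.35 to 2.81). Hars2, for histidine, was 1.43-fold higher (1.14 to 1.80), and Aars2, for alanine, 1.35-fold higher (1.04 to 1.77). These 3 were the genes with intervals wholly above 1. Mars2, for methionine, went the other way, with 0.602 RPKM (14 reads) in the mature and 1.84 RPKM (40 reads) in the immature library, 3.05-fold lower (1.62 to 6.07). At this low level it stayed within 2-fold on the scale with 1 RPKM added, and counted as lower with 0.1 RPKM added. Vars2, for valine, was 1.43-fold lower (1.07 to 1.91), and Sars2, for serine, had a ratio of 0.711 (0.504 to 0.999). Rars2, for arginine, was the most abundant of the group, at 17.8 RPKM in the mature and 19.4 RPKM in the immature library, a ratio of 0.916 (0.772 to 1.09). The other 6, Fars2, Iars2, Lars2, Nars2, Wars2 and Yars2, had ratios between 0.855 and 1.31 with intervals that held 1. Iars2 was covered over 5.76% of its length (typical 39.0%) in the mature and 7.43% (typical 41.9%) in the immature library, and its value is uncertain.

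Setting the cytosolic against the mitochondrial enzyme for the same amino acid removes any difference in library scaling. Of 14 such pairs, counting both phenylalanine subunits against Fars2, the cytosolic ratio was the smaller in 12. The exact counting interval of the cytosolic ratio over the mitochondrial ratio lay wholly below 1 in 9, wholly above 1 in 2 and held 1 in 3, and the median was 0.606. The widest gap was that of Vars and Vars2, at 0.346 (0.252 to 0.479), where both enzymes were lower in the mature library. Farsb over Fars2 came to 0.375 (0.282 to 0.499), and Hars over Hars2 to 0.435 (0.336 to 0.561). For histidine the genes differed in opposite directions, with Hars at 31.9 RPKM in the mature and 51.3 RPKM in the immature library, and Hars2 at 7.94 RPKM in the mature and 5.55 RPKM in the immature library. Their annotated spans overlap by 4 bases. The reverse order was found for methionine, where Mars over Mars2 came to 2.13 (1.12 to 4.29), and for serine, where Sars over Sars2 came to 1.48 (1.04 to 2.10). The cytosolic gene was the more abundant one in 13 pairs in either library, and the exception was Eprs, the poorly covered gene, against Ears2.

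**Figure D3:**
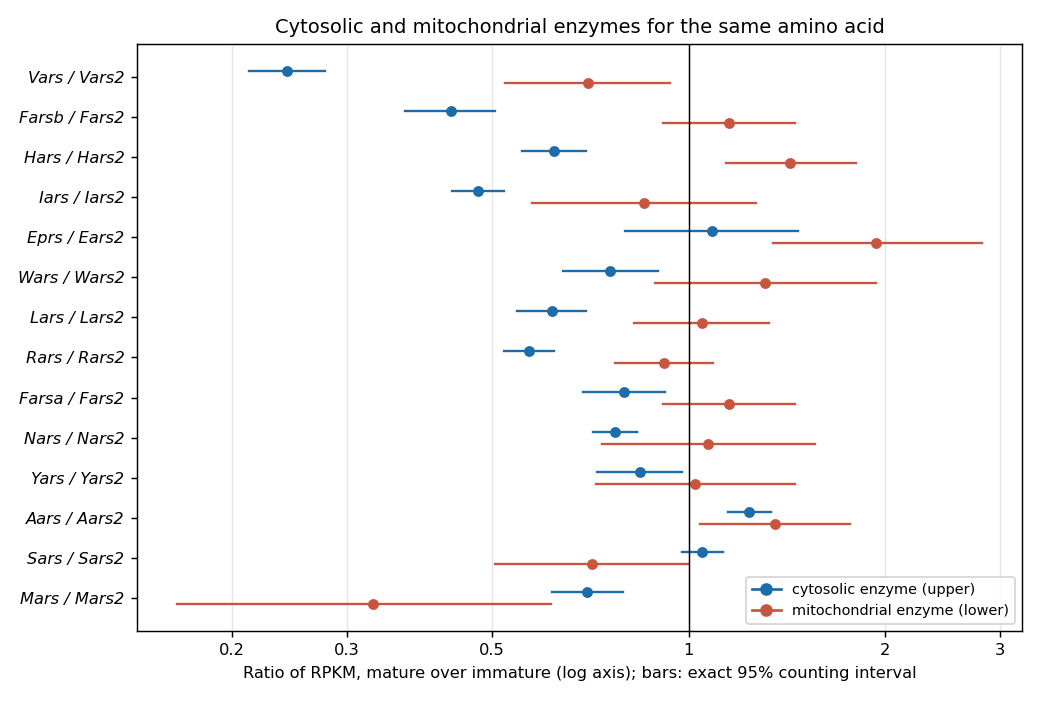
Ratio of RPKM, mature over immature, on a log axis for 14 pairs, with the cytosolic enzyme (blue) above the mitochondrial enzyme (red) for the same amino acid and exact 95% counting intervals as bars. The blue point lies left of the red one in 12 pairs, and right of it for serine and methionine at the bottom.

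Atf4 mRNA was higher in the mature library, while its targets among these genes lay in both directions. Atf4 stood at 480.0 RPKM (6778 reads) in the mature and 281 RPKM (3718 reads) in the immature library, 1.71-fold higher (1.64 to 1.78), which is within the 2-fold line. Its level was at percentile 99.5 of genes with reads in the mature library and 98.7 in the immature one. Of the 6 targets 5 reached 1 RPKM, of which 1 was at least 2-fold higher, against 9.05% of all genes, 2 lower, against 11.3%, and 2 within 2-fold. Trib3, a pseudokinase that binds ATF4 and inhibits it, stood at 8.82 RPKM (146 reads) in the mature and 3.29 RPKM (51 reads) in the immature library, 2.68-fold higher (1.94 to 3.77). Asns, the asparagine synthetase and the classic amino acid response gene, stood at 11.3 RPKM in the mature and 12.8 RPKM in the immature library, a ratio of 0.886 (0.717 to 1.10). Chac1, a glutathione-degrading enzyme, had 3 reads in the mature and 8 in the immature library, a ratio of 0.351 (0.060 to 1.46), so its direction was not detectable at this depth.

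Of the 3 enzymes that make serine from a glycolytic intermediate, Phgdh and Psat1 gave the lowest ratios of the 42 genes, and Psph did not. Phgdh, the first enzyme of the route, stood at 0.265 RPKM (4 reads) in the mature and 4.10 RPKM (58 reads) in the immature library, 15.5-fold lower (5.73 to 58.7). Psat1, the second, stood at 3.26 RPKM (56 reads) in the mature and 23.5 RPKM (378 reads) in the immature library, 7.21-fold lower (5.43 to 9.72). Psph, the last, stood at 3.11 RPKM (39 reads) in the mature and 4.34 RPKM (51 reads) in the immature library, a ratio of 0.716 (0.460 to 1.11). So the first and second steps were more than 2-fold lower over their whole intervals, while the interval of the last held 1. In the immature library Psat1 was covered over 44.5% of its length, where 90.6% was typical, and Phgdh over 33.5%, where 60.6% was typical. Beside them, the proliferation genes summed to 59.3 RPKM in the mature and 556 RPKM in the immature library, and the granulocyte markers to 2044 RPKM in the mature and 8468 RPKM in the immature library. Their part in these values was not tested.

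The enzymes that use serine and carry its carbon were lower too. Of 18 other serine, glycine and one-carbon genes 16 were compared, with a median of -0.72. Of these 6 were at least 2-fold lower, against 11.3% of all genes, 1 higher, against 9.05%, and 9 within 2-fold. Shmt2, the mitochondrial enzyme that splits serine into glycine and a one-carbon unit, stood at 10.9 RPKM in the mature and 37.4 RPKM in the immature library, 3.44-fold lower (2.93 to 4.05). Shmt1, its cytosolic counterpart, was 4.45-fold lower (2.83 to 7.26). Mthfd1, the cytosolic folate enzyme with several activities, was 3.01-fold lower (2.52 to 3.60). The list's Tyms, which makes thymidylate, is also a gene of DNA synthesis. Gldc, of the mitochondrial glycine cleavage system, was the one higher member, with 53 reads in the mature and 2 in the immature library, a ratio of 24.8 (6.54 to 210.3). Mthfd2, an ATF4 target, was chosen after its value was seen and stood at 40.9 RPKM in the mature and 37.6 RPKM in the immature library, a ratio of 1.09 (0.972 to 1.21).

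Stress genes linked to ATF4 outside the 42 lay in both directions. Of 39 on the list 33 were compared, with a median of 0.13. Of these 12 were at least 2-fold higher, against 9.05% of all genes, 5 lower, against 11.3%, and 16 within 2-fold. The highest by log2 fold were Vegfa, Ddit4, Atf5 and Nupr1. Ddit4, an inhibitor of the growth kinase complex mTORC1, stood at 13.5 RPKM (184 reads) in the mature and 1.33 RPKM (17 reads) in the immature library, 10.1-fold higher (6.16 to 17.8). Atf5, a stress-response transcription factor related to ATF4, stood at 204 RPKM in the mature and 32.4 RPKM in the immature library, 6.29-fold higher (5.70 to 6.96). Nupr1, a small stress-induced nuclear protein, stood at 24.4 RPKM in the mature and 6.00 RPKM in the immature library, 4.07-fold higher (2.70 to 6.32). Vegfa, which encodes a growth factor of blood vessels, was 10.6-fold higher (9.97 to 11.2). Among others above 2-fold, chosen after their values were seen, Ddit3, which encodes the factor CHOP, stood at 40.7 RPKM in the mature and 15.2 RPKM in the immature library, 2.68-fold higher (2.13 to 3.40). Atf3 stood at 311 RPKM in the mature and 104 RPKM in the immature library, 2.99-fold higher (2.82 to 3.17). The annotated spans of Ddit3 and Mars overlap by 71 bases, and reads there cannot be assigned.

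The 4 lowest of that list by log2 fold were Shmt2, given above, Slc7a5, Aldh18a1 and Slc1a5. Slc7a5, the light chain of a transporter for large neutral amino acids such as leucine, stood at 2.82 RPKM (80 reads) in the mature and 10.8 RPKM (288 reads) in the immature library, 3.84-fold lower (2.99 to 4.99). It was covered over 34.7% (typical 51.7%) in the mature and 41.4% (typical 82.4%) in the immature library, and its level is uncertain. Aldh18a1, the first enzyme of proline synthesis, stood at 4.82 RPKM in the mature and 15.5 RPKM in the immature library, 3.21-fold lower (2.64 to 3.92). Slc1a5, a glutamine transporter, stood at 20.7 RPKM in the mature and 44.3 RPKM in the immature library, 2.14-fold lower (1.92 to 2.40). The fifth lower gene was Pck2, a mitochondrial enzyme that makes phosphoenolpyruvate, 2.53-fold lower (1.88 to 3.43). Slc7a11, the cystine transporter, was chosen after its value was seen and went the other way, 2.06-fold higher (1.97 to 2.16). Slc6a9, a glycine transporter chosen for the same reason, had 33 reads in the mature and 1 in the immature library, a ratio of 30.9 (5.18 to 1258). Cth, which makes cysteine, had no reads in either library, and Cbs had 1 read in the immature one.

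**Figure D4:**
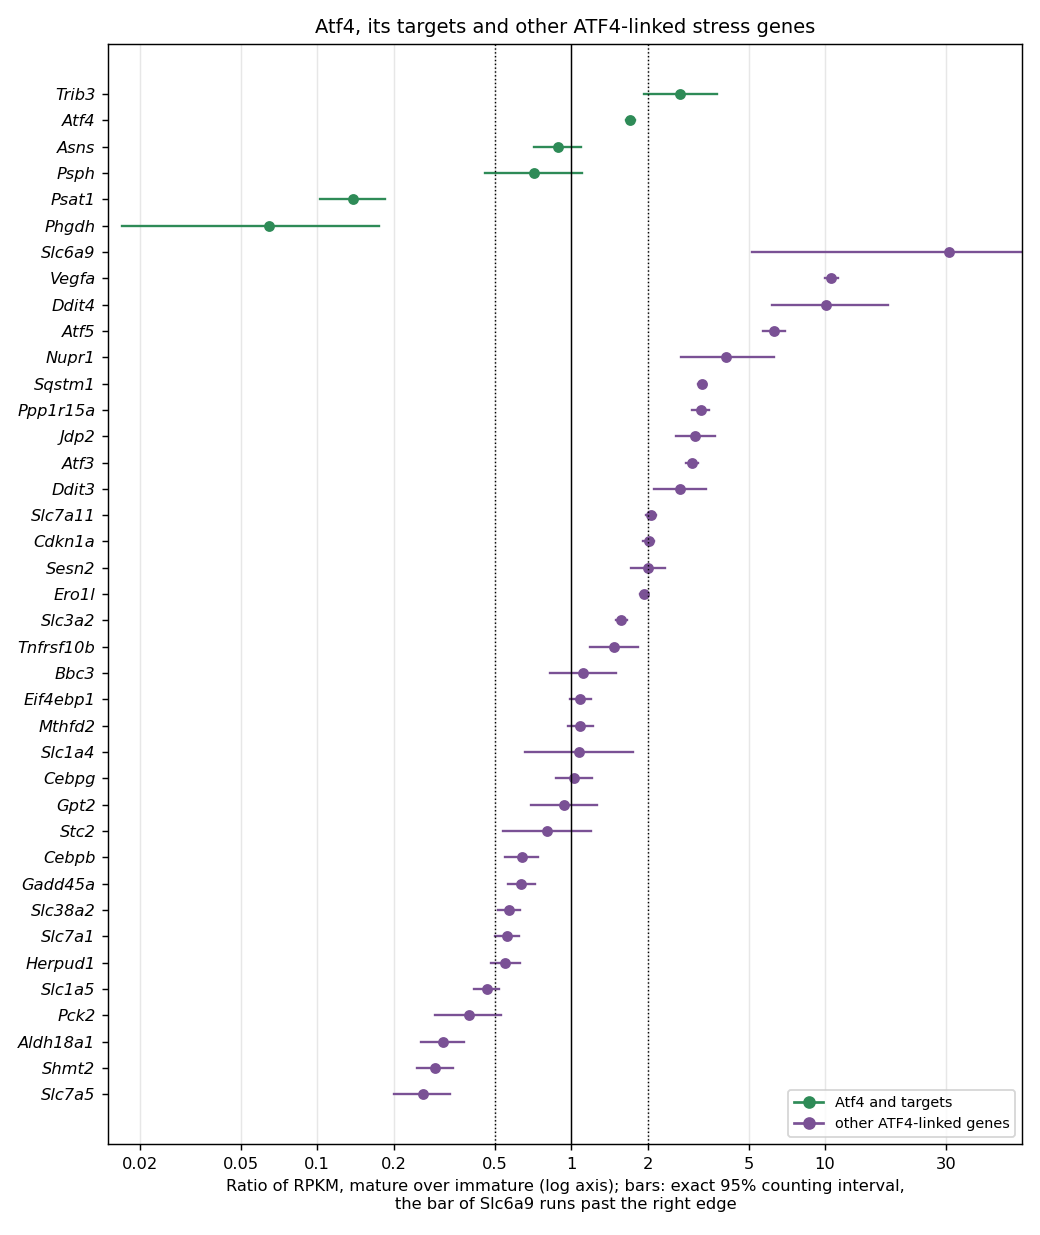
Ratio of RPKM, mature over immature, on a log axis for Atf4 and its 5 compared targets (green) and 33 other ATF4-linked genes (purple), with exact 95% counting intervals as bars and dotted lines at 2-fold. Vegfa, Ddit4, Atf5, Nupr1 and Slc6a9 lie to the right of 2-fold, while Psat1, Phgdh, Shmt2, Aldh18a1 and Slc7a5 lie to the left of it.

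Genes that control ATF4 translation lay mostly within 2-fold. Of 16 genes for eIF2, its exchange factor, kinases and phosphatases, 15 were compared, with a median of -0.048. Of these 2 were higher, against 9.05% of all genes, 0 lower, against 11.3%, and 13 within 2-fold. Ppp1r15a (GADD34), the stress-induced phosphatase subunit that restores eIF2 and itself a target of this pathway, stood at 154 RPKM in the mature and 47.4 RPKM in the immature library, 3.24-fold higher (3.0 to 3.50), and counts in the list above too. Impact, an inhibitor of Gcn2 activation, stood at 44.7 RPKM in the mature and 16.3 RPKM in the immature library, 2.74-fold higher (2.46 to 3.07). Gcn2 itself, the gene Eif2ak4, was chosen after its value was seen and had a ratio of 1.12 (0.995 to 1.27).

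By median log2 fold, the partners of the synthetases in translation differed between compartments in the same order as the enzymes. Of 10 cytosolic elongation and initiation genes 3 were lower, against 11.3% of all genes, 0 higher, against 9.05%, and 7 within 2-fold. Their median was -0.73. Of 10 mitochondrial translation factor genes 10 lay within 2-fold, where 20.4% of all genes lay beyond it, with a median of 0.057. Eif5a, the factor that relieves stalled ribosomes, stood at 175 RPKM in the mature and 749.9 RPKM in the immature library, 4.28-fold lower (4.08 to 4.49). Eef1g, a subunit of the elongation factor exchange complex, was 2.64-fold lower (2.08 to 3.37), with reads over 11.2% of its length in the mature and 16.6% in the immature library. Eif4a1, the helicase of translation initiation, was 2.03-fold lower (1.97 to 2.10). Eif4e, chosen after its value was seen, was the 1 cytosolic gene of the 10 with a ratio above 1, at 2.00 (1.34 to 3.04). Its reads covered 5.97% of its length in the mature and 8.19% in the immature library. The difference between the compartments was not tested.

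Wars is known as an interferon-gamma-induced gene, so it was set beside interferon genes. Their list mixes interferon-gamma genes with other interferon regulatory genes and was not split by type of interferon. Of 16 listed 15 were compared, with a median of 1.45. Of these 11 were at least 2-fold higher, against 9.05% of all genes, 0 lower, against 11.3%, and 4 within 2-fold. Irf7, an interferon regulatory transcription factor, was 16.3-fold higher (13.3 to 20.1), and Irf8 9.42-fold higher (8.76 to 10.1). The 4 within 2-fold, chosen after their values were seen, had ratios of 1.67 (Psmb9), 1.32 (Psmb8), 1.10 (Irf1) and 0.555 (Cxcl10, 0.279 to 1.07). Cxcl9, with 5 reads in the mature and 10 in the immature library, was not compared. Wars stood at 11.4 RPKM (260 reads) in the mature and 14.99 RPKM (321 reads) in the immature library, 1.32-fold lower (1.12 to 1.56). Of the 15 compared interferon genes 1 also had a ratio below 1, Cxcl10, whose interval held 1. Wars2 had a ratio of 1.31 (0.889 to 1.94).

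The remaining synthetase-related genes lay mostly within 2-fold. These are 14 genes, which hold the mitochondrial enzymes left out of the 42, editing factors and the tRNA exporter Xpot. Of them 13 were compared, with a median of -0.064. Of these 0 were higher, against 9.05% of all genes, 1 was lower (Eef1e1, above), against 11.3%, and 12 lay within 2-fold. The interval lay wholly above 1 for 1, against 36.1% of all genes, and wholly below 1 for 6, against 33.8%. The summed reads of the list gave a ratio per M counted reads of 0.865 (0.811 to 0.922). Pars2, the mitochondrial proline enzyme, was chosen after its value was seen, stood at 2.50 RPKM in the mature and 1.07 RPKM in the immature library, and had a ratio of 2.32 (1.44 to 3.86). It lay within 2-fold only on the scale with 1 RPKM added.

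**Figure D5:**
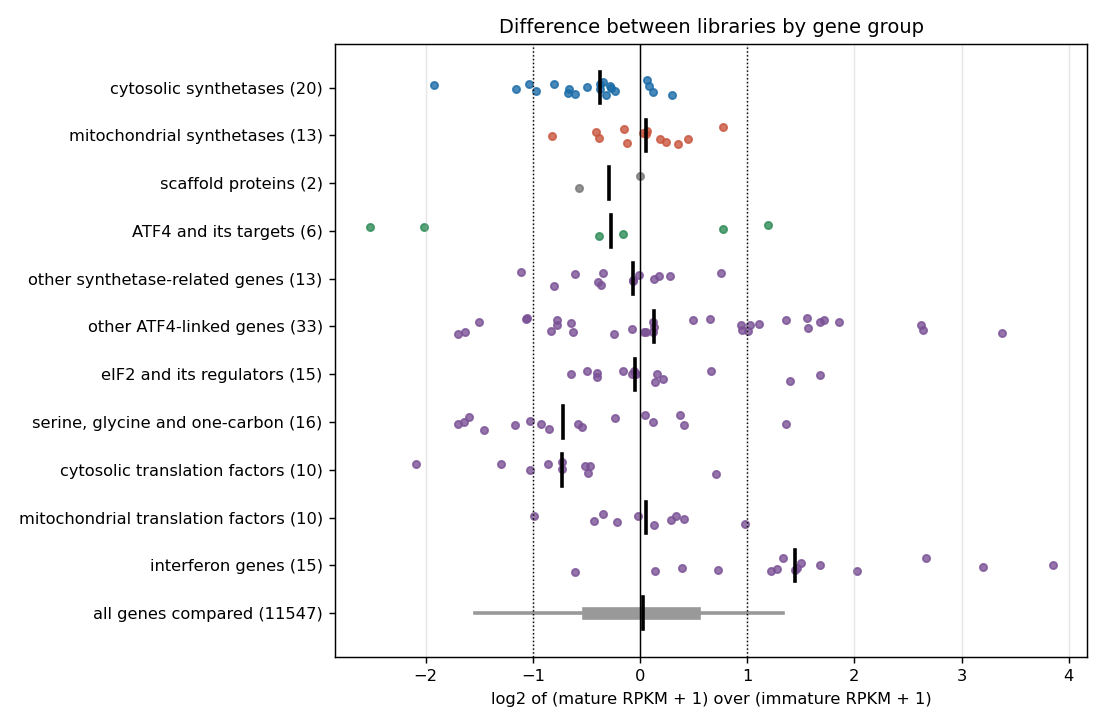
Log2 of (mature RPKM + 1) over (immature RPKM + 1) for each compared gene (points) by group, with the group median as a black bar, the number of genes in brackets and dotted lines at 2-fold. The bottom row gives the median, the middle 50% (thick) and the range from percentile 5 to 95 (thin) of all 11547 genes compared. The cytosolic synthetases (median -0.37), the serine and one-carbon genes (-0.72) and the cytosolic translation factors (-0.73) are centred left of all genes, and the interferon genes (1.45) right of them.

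Genes with the composite element did not share a direction. Of the 8 genes whose windows are printed above, Trib3 (2.68) and Aars (1.24) had ratios above 1. Asns (0.886), Yars (0.841), Gars (0.826), Tars (0.495), Iars (0.476) and Chac1 (0.351) had ratios below 1, of which those of Asns and Chac1 had intervals that held 1. The 5 cytosolic enzymes with the letters thus ran from the highest cytosolic ratio to below 0.5. Of 39 other ATF4-linked genes 32 had a promoter in the table, and 9 of these held the letters.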

How the data were processed

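Per the file headers, the deposited tables list, by Entrez Gene number, how many unique reads fell on a gene (count), its length, the share of that length with reads (percent) and RPKM. The authors' RPKM equals the count divided by kilobases of length and by M reads counted to genes, within a relative deviation of 1.07e-07. The build is mm8, per the submitters' processing notes; aligner, counter, annotation and strandedness are not stated there or in the labels. Genes absent from a file were set to 0 reads. Symbols came from the RefSeq table of GRCm38.p6, which named 16219 of 18090 Entrez numbers.

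Log2 folds used a pseudocount of 1 RPKM, which shrinks the folds of weakly expressed genes, and genes that reached 1 RPKM in either library. Intervals are exact (Clopper-Pearson on the share of a gene's reads in each library; for pairs, conditional odds ratios). As there are no molecular identifiers and PCR copies are counted again, intervals and floors cover counting error only. No p-value was computed. The steps were tested on simulated data. Python 3.11.15 with scipy 1.17.1 was used, and edgeR 4.0.16 and DESeq2 1.42.0 only for alternative scaling factors of the counts.

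The members and lists were chosen with earlier results of these data known. Every member could be named. From each other list, up to 4 genes at least 2-fold higher and 4 lower could be named, by size of log2 fold. Genes named beyond this are marked in the text as chosen after their values were seen. Some items are not reported here.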

Additional observations from a re-analysis of the deposited data

How the results depend on the processing

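The alternatives changed the pseudocount, the filter, the scaling, the coverage asked for, the gene length trend and the size of difference counted. The cytosolic median log2 fold stayed negative under all of them, between -0.43 and -0.26 (-0.26 with RPKM scaled to a common sum without the 50 most abundant genes, which raised the median of all genes by 0.10). The cytosolic minus mitochondrial difference of medians ran from -0.55 to -0.36. The sign turned for 2 medians: the mitochondrial one to -0.0052 with the length trend removed, and that of Atf4 and its targets to 0.30, once when genes had to reach 5 RPKM and once when reads had to cover 50% of them, since both leave fewer targets. With a pseudocount of 5 RPKM, 2 of all members were lower (1 cytosolic, 1 of the Atf4 group) and 0 higher. With 0.1 RPKM, 7 members were lower (4 cytosolic, 1 mitochondrial). Iars (-1.03) lost its call under both common-sum scalings (-0.95 and -0.92), which left 2 cytosolic genes lower, and Tars (-0.97) gained one with 0.1 RPKM and with TMM scaling (-1.01 in both). With the filter at 5 RPKM 1 gene of the Atf4 group was lower. With coverage of at least 50%, 3 members were lower and 0 of the Atf4 group. At 1.5-fold, 11 members were lower (8 cytosolic, 1 mitochondrial) and 3 higher (2 of the Atf4 group, 1 mitochondrial). With the whole counting interval beyond 2-fold, 3 were lower (1 cytosolic) and 0 higher in the Atf4 group or elsewhere. Of 393 values of single members under the alternatives, 384 moved by less than their counting interval, and no called gene changed sign. The uncalled Aimp1, Eprs, Lars2, Nars2 and Yars2, close to 0, turned sign under some of them. The cause of the other moves was not tested. Depth limits the mitochondrial enzymes, Phgdh and Chac1 most. No paired analysis was possible because each state has 1 library and the labels give no replicate numbers.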
